A study of Mus musculus with 16 samples.

Results

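The TGF-beta and BMP system was followed across 16 mouse hearts through 9 named genes: the ligands Tgfb1, Tgfb2, Tgfb3, Bmp2 and Bmp4, the receptors Tgfbr1 and Tgfbr2, the latency protein gene Ltbp1, and Thbs1, whose product can release TGF-beta from its latent form. A gene was taken where a probe set carried its symbol and no other, and each of the 9 genes had 1 such probe set, out of 22180 genes measured in all. RNA came from the myocardium of C57Bl/6J mice, each heart on its own Affymetrix array, 4 hearts in each of 4 groups. Mice were wild type (WT) or carried the delta 19 allele of the circadian gene Clock on both chromosomes (delta 19/delta 19, here Clock mice or hearts), and ate either standard chow (SC) or a high-fat diet (HFD) for 24 weeks. All mice were 32 weeks old, and every heart was taken 7 hours after lights on, so each value stands for 1 time of day. The labels call the hearts biological replicates. The labels call the Clock mice transgenic, and the sources used here do not state the sex of the mice.

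TGF-beta is secreted as an inactive dimer held by its own propeptide, which latent TGF-beta binding proteins such as LTBP1 tie to the matrix until integrins, proteases or thrombospondin 1 set it free. The free ligand brings together the receptors TGFBR2 and TGFBR1, which phosphorylate SMAD2 and SMAD3, while BMP ligands act through related receptors on SMAD1, SMAD5 and SMAD9. In the heart this system is known for driving fibroblasts to lay down collagen, and BMPs for their part in heart development and in the endothelium. CLOCK and its partner BMAL1 switch genes on through E-boxes, and the delta 19 protein still binds DNA with BMAL1 but activates transcription poorly.

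Because CLOCK acts through E-boxes, the promoters of the 9 genes were searched for the letters CACGTG, which read the same on both strands. RefSeq windows of GRCm38.p6, running from 250 bases before a start site to 50 after it, were at hand for 6 of the 9 genes (8 windows). CACGTG was in 2 of the 8 windows, those of Bmp4 and Tgfb2, against 7.15% of 32851 mouse promoter windows of the same length. It began 188 bases before the start site of Bmp4 and 51 bases before a start site of Tgfb2. The Tgfb2 window lies inside the gene, which begins at chr1:186709697 on the minus strand, and no window at that outer end was at hand. The window of Bmp4 is chr14:46390620-46390919 on the minus strand, that of Tgfb2 is chr1:186705940-186706239 on the minus strand, and CACGTG is in capitals in both.
Bmp4: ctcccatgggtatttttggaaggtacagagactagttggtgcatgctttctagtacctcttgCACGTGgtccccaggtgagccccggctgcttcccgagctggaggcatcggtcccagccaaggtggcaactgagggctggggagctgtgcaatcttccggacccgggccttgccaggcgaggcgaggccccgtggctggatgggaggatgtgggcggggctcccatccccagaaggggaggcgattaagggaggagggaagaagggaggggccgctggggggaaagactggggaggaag
Tgfb2: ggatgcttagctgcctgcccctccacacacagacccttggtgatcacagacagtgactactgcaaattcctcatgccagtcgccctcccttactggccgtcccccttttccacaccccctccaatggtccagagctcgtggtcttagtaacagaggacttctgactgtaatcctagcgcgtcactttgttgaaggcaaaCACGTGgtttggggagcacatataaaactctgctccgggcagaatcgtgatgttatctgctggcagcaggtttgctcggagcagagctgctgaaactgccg
The third sequence shown is the window of Tgfb1, the gene with the most significant diet difference among the 9, at chr7:25686752-25687051 on the plus strand. It holds no CACGTG. Its capitals mark 6 matches to the GC box GGGCGG on either strand, a motif found in 35.7% of all windows and also in those of Bmp4 and Tgfbr1.
Tgfb1: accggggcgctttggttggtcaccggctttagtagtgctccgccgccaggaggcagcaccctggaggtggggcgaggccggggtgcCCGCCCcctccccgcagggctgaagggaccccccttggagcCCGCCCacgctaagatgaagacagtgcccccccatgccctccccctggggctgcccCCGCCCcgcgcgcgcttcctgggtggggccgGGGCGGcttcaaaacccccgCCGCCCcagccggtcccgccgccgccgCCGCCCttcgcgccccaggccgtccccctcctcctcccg
The variant CACGTT on either strand was in 0 of the 8 windows, against 4.68% of all windows. The SMAD box CAGAC on either strand was in 5 of the 8, those of Ltbp1, Tgfb2, Tgfbr1 and Tgfbr2, against 49.6%. The letters TATAAA on either strand were in 1 of the 8, that of Tgfb2, against 13.6%. A match of letters is a description of the window and not a binding site.

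In the deposited log values every probe set has a median of 0 across the 16 hearts. Hearts can therefore be compared with each other for 1 gene, but no gene has a level of its own, genes cannot be ranked by abundance, and whether markers of the labelled tissue were near 0 could not be read. No source used here states the log base, assumed to be 2, or the sign, assumed to be positive where a heart has more of a transcript. Differences are given ± the standard error of a limma fit with 4 hearts in each group, and adjusted p-values are Benjamini-Hochberg values over all 22180 genes with a threshold of 0.05. Array medians lay between -0.00154 and 0.00281 and array standard deviations between 0.111 and 0.159. The transcript of Clock itself, from which the allele drops 1 exon while the rest is kept, ranged from -0.28 to 0.17 in WT SC hearts, from -0.54 to -0.20 in WT HFD hearts, from 0.014 to 0.13 in Clock SC hearts and from -0.011 to 0.048 in Clock HFD hearts. Dbp, a target of CLOCK, was between 0.37 and 2.45 in the 8 WT hearts and between -0.62 and -0.37 in the 8 Clock hearts. One heart stood apart in its clock genes: WT SC replicate 4 had the lowest Dbp (0.37), the lowest Nr1d1 (0.30), the lowest Per3 (-0.013) and the highest Arntl (0.54) of the 8 WT hearts, and calls for diet in WT hearts, for genotype on SC and for the average that end without it are named below. Clock SC replicate 4 resembled its own group least, with a mean correlation of 0.0051 to those hearts and of -0.052 to the hearts of other groups. In bulk tissue, fewer cells of a type and less RNA per cell cannot be told apart, for any gene below.

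In hearts on HFD, 2 of the 9 genes differed between genotypes, Bmp4 lower and Thbs1 higher in Clock hearts, where 1.9% of all genes differed. On SC 0 of the 9 differed, where 0.491% of all genes did. HFD lowered Tgfb1 in both genotypes and in WT hearts also raised Bmp4, which makes 2 of the 9 in WT hearts (0.352% of all genes) and 1 of the 9 in Clock hearts (0.0902% of all genes). Averaged over both diets, Tgfb3 was higher and Bmp4 lower in Clock hearts, 2 of the 9 where 3.88% of all genes differed. Tgfb2, Bmp2, Tgfbr1, Tgfbr2 and Ltbp1 passed the threshold in none of the 6 comparisons.

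By direction, 0.239% of all genes were higher and 0.252% lower in Clock hearts on SC, 1.13% were higher and 0.771% lower on HFD, and 2.44% were higher and 1.44% lower in the average. With HFD 0.185% were higher and 0.167% lower in WT hearts, and 0.0496% were higher and 0.0406% lower in Clock hearts. The 2 groups compared did not overlap for 1 of the 9 genes in genotype on SC (4.95% of all genes), 3 in genotype on HFD (8.89%), 3 in diet in WT (5.3%) and 3 in diet in Clock hearts (5.31%). The median difference over the 9 genes was 0.053 on SC, -0.077 on HFD, 0.084 for diet in WT and -0.10 for diet in Clock hearts, while the medians over all genes lay between -0.0022 and 0.00026 in these comparisons. Comparisons that share a group rest in part on the same hearts.

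**Figure D1:**
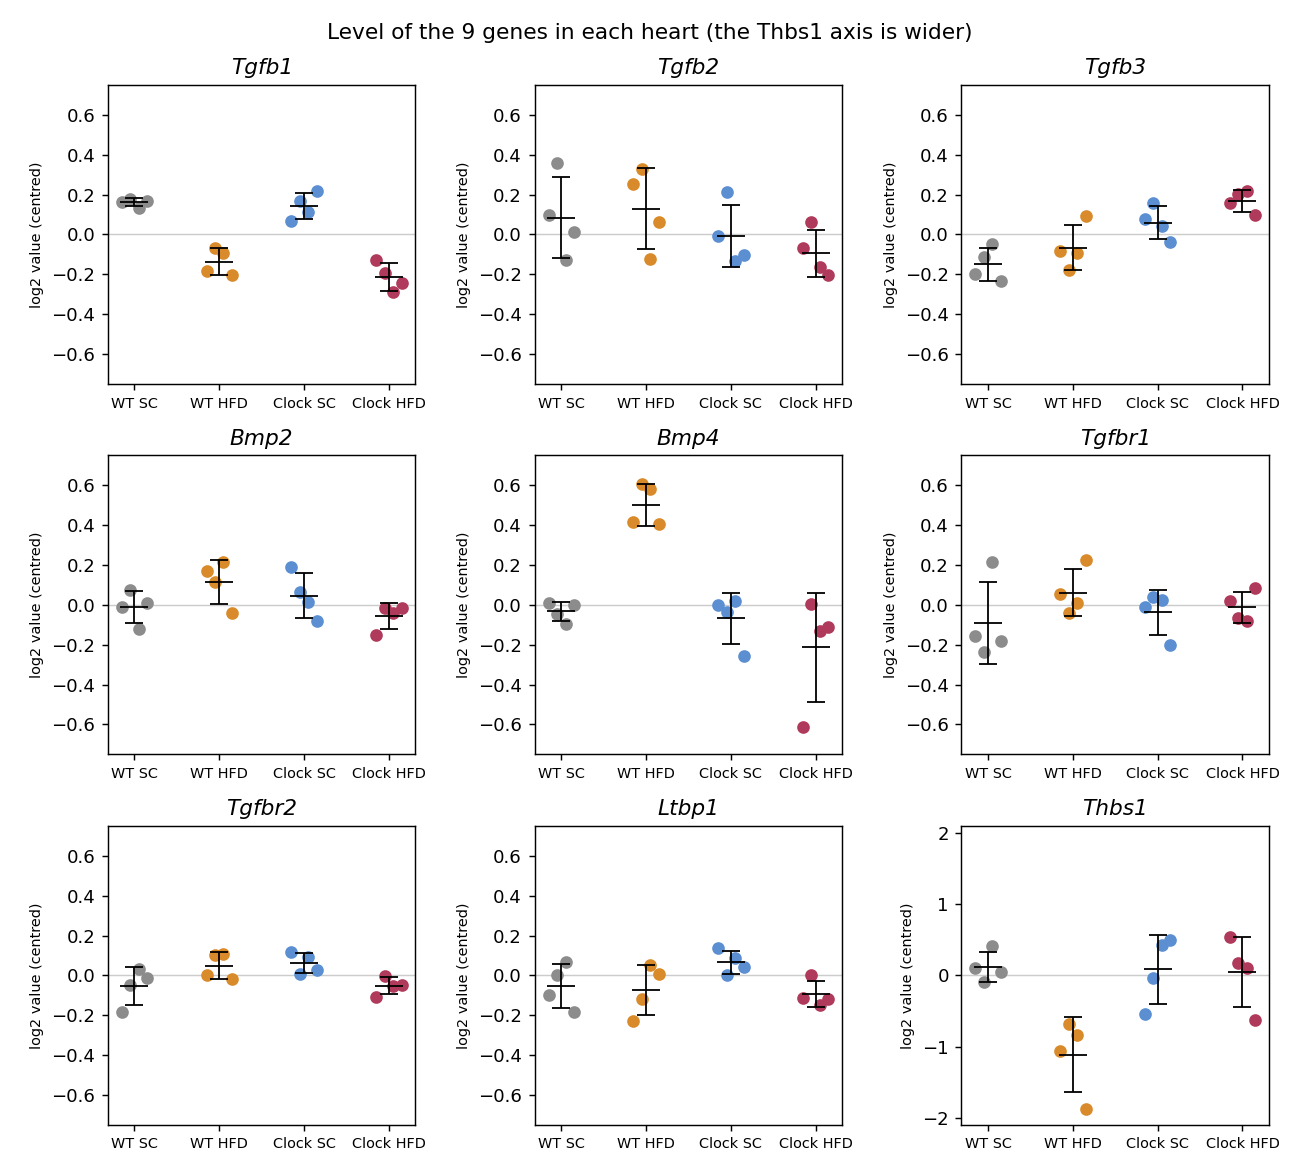
Centred log2 value of each of the 9 genes (vertical axis) in every heart of the 4 groups (horizontal axis). Points are hearts, horizontal bars group means and vertical bars the SD of 4 hearts. Bmp4 in WT HFD hearts sits between 0.40 and 0.60 and Thbs1 in WT HFD hearts between -1.88 and -0.69, both apart from the other 12 hearts, and Tgfb1 lies above 0 in every SC heart and below 0 in every HFD heart.

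Tgfb1 encodes the most studied TGF-beta isoform, which is also stored in platelets. It lay at 0.16, 0.18, 0.13 and 0.17 in WT SC hearts and at -0.18, -0.067, -0.094 and -0.21 in WT HFD hearts. Its values were 0.067, 0.17, 0.11 and 0.22 in Clock SC hearts and -0.13, -0.19, -0.29 and -0.25 in Clock HFD hearts. All 8 SC hearts were above all 8 HFD hearts, while within a diet the genotypes overlapped.

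Tgfb1 fell by 0.30 ± 0.05 on the log2 scale with HFD in WT hearts (1.23-fold, limma adjusted p = 0.0156) and by 0.36 ± 0.05 in Clock hearts (1.28-fold, limma adjusted p = 0.00666). The 95% intervals of the differences ran from -0.40 to -0.20 in WT and from -0.46 to -0.25 in Clock hearts. Tgfb1 was 14th by p of all genes in WT and 4th in Clock hearts. The difference between its diet effects was -0.06, with a 95% interval from -0.20 to 0.09. Without WT HFD replicate 4 it fell by 0.28 in WT hearts (limma adjusted p = 0.0505), and without WT SC replicate 4 it fell by 0.30 (limma adjusted p = 0.0405). In a fit of the 8 compared hearts alone the adjusted p from limma was 0.0646 in WT and 0.0758 in Clock hearts. Between genotypes Tgfb1 differed by -0.02 ± 0.05 on SC and by -0.08 ± 0.05 on HFD, neither past the threshold.

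Platelet markers moved with diet in the same hearts. Of the 8 listed 6 were measured, and 0 of the 6 passed in any comparison, but all 6 differences were below 0 with HFD in WT hearts (median -0.22) and 5 of 6 in Clock hearts (median -0.21). The smallest p was that of Pf4, platelet factor 4, at -0.33 ± 0.11 in WT (limma adjusted p = 0.257) and -0.25 ± 0.11 in Clock hearts (limma adjusted p = 0.574). The mean of the 6 markers ran from -0.11 to 0.75 in WT SC, from -0.12 to -0.057 in WT HFD, from -0.096 to 0.71 in Clock SC and from -0.26 to 0.32 in Clock HFD hearts. The SC and HFD ranges of this mean overlapped in both genotypes. With that mean as a covariate, tried after seeing the data, the Tgfb1 differences with HFD were -0.33 (limma adjusted p = 0.0116) and -0.39 (limma adjusted p = 0.00614). With the mean of 13 fibroblast markers as the covariate they were -0.27 in WT (limma adjusted p = 0.131) and -0.34 in Clock hearts (limma adjusted p = 0.0250). With HFD 13 of the 13 fibroblast differences were above 0 in WT (median 0.14) and 10 in Clock hearts (median 0.043), and 0 passed. With the mean of 12 endothelial markers, of which 11 had differences below 0 with HFD in WT hearts, the Tgfb1 differences were -0.34 (limma adjusted p = 0.140) and -0.36 (limma adjusted p = 0.0123). That mean did not overlap between WT SC (-0.085 to 0.050) and WT HFD hearts (-0.25 to -0.19). In WT hearts it and diet can therefore hardly be told apart. With the mean of 25 immediate early genes the Tgfb1 differences were -0.28 in WT (limma adjusted p = 0.0969) and -0.35 in Clock hearts (limma adjusted p = 0.0105). The part of these lists in the Tgfb1 differences was not tested.

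**Figure D2:**
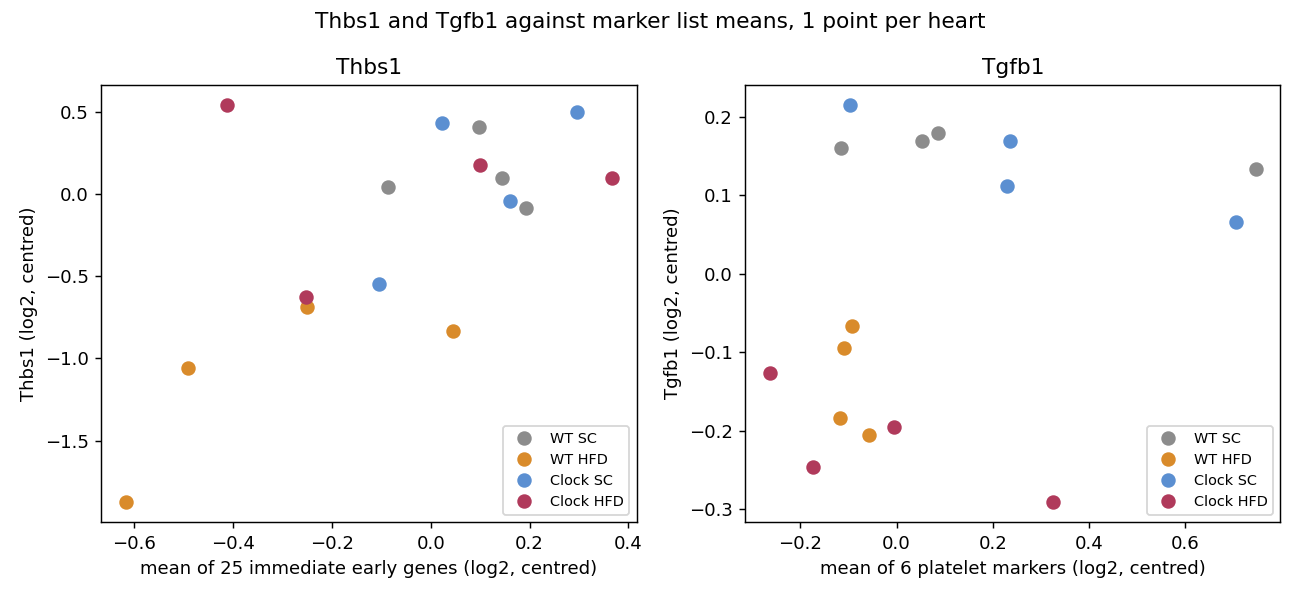
Left, Thbs1 (vertical axis) against the mean of 25 immediate early genes (horizontal axis); right, Tgfb1 (vertical axis) against the mean of 6 platelet markers (horizontal axis), all centred log2 values with 1 point per heart, coloured by group. The WT HFD hearts have the 4 lowest Thbs1 values with early gene means from -0.62 to 0.04, and HFD hearts have low Tgfb1 with platelet marker means from -0.26 to 0.32.

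Tgfb2 encodes the isoform that also acts in the cushions of the developing heart valves. It lay at 0.098, 0.36, -0.13 and 0.010 in WT SC hearts and at 0.25, 0.33, -0.13 and 0.064 in WT HFD hearts. In Clock SC hearts it lay at -0.010, 0.21, -0.13 and -0.10, and in Clock HFD hearts at -0.069, 0.060, -0.17 and -0.20. All 4 groups overlapped, and the hearts within a group spread more than the group means did. The largest difference, Clock below WT on HFD, was -0.22 ± 0.11 (95% interval from -0.46 to 0.0099), and it did not pass (limma adjusted p = 0.394).

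Tgfb3, the third isoform, lay at -0.20, -0.11, -0.050 and -0.24 in WT SC hearts and at -0.085, -0.18, -0.095 and 0.092 in WT HFD hearts. The Clock hearts had 0.078, 0.16, 0.041 and -0.041 on SC and 0.16, 0.20, 0.22 and 0.097 on HFD. On each diet the 4 Clock hearts were above the 4 WT hearts, by a narrow gap of single hearts in both cases, and within each genotype the SC and HFD hearts overlapped. Averaged over the diets Tgfb3 was higher in Clock hearts by 0.22 ± 0.04 (1.17-fold, limma adjusted p = 0.00692). In the same comparison 7 of 12 endothelial markers rose, with a median of 0.23, and with their mean as a covariate the Tgfb3 difference was 0.19 and did not pass (limma adjusted p = 0.817). On HFD that mean did not overlap between WT (-0.25 to -0.19) and Clock hearts (-0.035 to 0.19). On SC it barely did (-0.085 to 0.050 in WT, 0.042 to 0.16 in Clock hearts). The marker mean and genotype can therefore hardly be told apart in this fit. On 1 diet at a time the difference was 0.21 ± 0.06 on SC (limma adjusted p = 0.185) and 0.24 ± 0.06 on HFD (limma adjusted p = 0.0628), and neither passed. The HFD difference passed without WT HFD replicate 4, the highest WT heart (0.29, limma adjusted p = 0.0202). The order of the group means was WT SC, WT HFD, Clock SC and Clock HFD, and no step between neighbours in that order passed where it was tested: SC to HFD was 0.08 ± 0.06 in WT and 0.11 ± 0.06 in Clock hearts.

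Bmp2 encodes a BMP ligand made by cardiac muscle and endothelium. It lay at -0.011, 0.073, -0.12 and 0.011 in WT SC hearts and at 0.17, 0.12, 0.21 and -0.041 in WT HFD hearts. Its values were 0.19, 0.064, 0.016 and -0.081 in Clock SC hearts and -0.15, -0.018, -0.039 and -0.016 in Clock HFD hearts. In WT HFD hearts 3 of 4 were high, and the groups overlapped in each comparison. Clock hearts differed from WT hearts on HFD by -0.17 ± 0.07 (95% interval from -0.31 to -0.032), which did not pass (limma adjusted p = 0.243).

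Bmp4, the ligand closest to BMP2 in sequence, showed 1 group far from the other 3. It lay at 0.011, -0.046, -0.098 and 0.0013 in WT SC hearts and at 0.42, 0.60, 0.58 and 0.40 in WT HFD hearts. In Clock SC hearts it lay at -0.0013, -0.035, 0.019 and -0.25, and in Clock HFD hearts at -0.61, 0.0032, -0.13 and -0.11. Every WT HFD heart was above every one of the other 12 hearts, and those 12 overlapped between groups, with Clock HFD replicate 1 the lowest.

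Bmp4 was lower in Clock than in WT hearts on HFD by log2 -0.71 ± 0.10 (1.64-fold, limma adjusted p = 0.00130, 55th of all genes by p). It rose by 0.53 ± 0.10 with HFD in WT hearts (1.45-fold, limma adjusted p = 0.0348). Both comparisons use the same 4 WT HFD hearts. In Clock hearts the diet difference was -0.15 ± 0.10 and on SC the genotype difference was -0.04 ± 0.10, neither past the threshold. The difference between the diet effects of the genotypes was -0.68 ± 0.15 with an unadjusted p of 0.000256 by limma, the 8th smallest of all genes, and it did not pass over all genes (limma adjusted p = 0.710). Averaged over the diets Bmp4 was lower in Clock hearts by log2 -0.37 ± 0.07 (limma adjusted p = 0.00698).

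The genotype call on HFD held when each of the 16 hearts was left out in turn, with differences from -0.79 to -0.58. The rise with HFD in WT hearts was lost without Clock SC replicate 2 (limma adjusted p = 0.0525) and without each one of the WT hearts, with differences from 0.50 to 0.57 and adjusted p from 0.0620 to 0.0906. Without WT SC replicate 4 it was 0.55 (limma adjusted p = 0.0862). Endothelial markers moved in the same hearts. The mean of 12 of them ran from -0.25 to -0.19 in WT HFD hearts, apart from -0.085 to 0.050 in WT SC, 0.042 to 0.16 in Clock SC and -0.035 to 0.19 in Clock HFD hearts. On HFD 4 of the 12 rose in Clock hearts, with Cldn5, the tight junction protein claudin 5, at 1.21 ± 0.17, Robo4 at 0.44 ± 0.09 and Esam at 0.39 ± 0.07 the largest, of which Robo4 was lost in 5 of 16 fits that leave out 1 heart. With HFD in WT hearts Cldn5 fell by 0.81 ± 0.17 and the other 11 did not pass. That fall was lost in 12 of 16 fits that leave out 1 heart, 1 of them without WT SC replicate 4 (limma adjusted p = 0.0815). Bmp4 was high in the hearts where this mean was low, and since its range in WT HFD hearts does not overlap that of Clock HFD hearts, the marker mean and the group cannot be told apart there. With the endothelial mean as a covariate, tried after seeing the data, the genotype difference of Bmp4 on HFD was log2 -0.995 (limma adjusted p = 0.221) and its rise with HFD in WT hearts 0.70 (limma adjusted p = 0.140).

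Tgfbr1 encodes the type I receptor kinase ALK5. It lay at -0.15, -0.24, 0.21 and -0.18 in WT SC hearts and at 0.054, -0.043, 0.011 and 0.23 in WT HFD hearts. The Clock hearts had -0.011, 0.041, 0.026 and -0.20 on SC and 0.017, -0.065, -0.082 and 0.084 on HFD. The groups overlapped throughout, and 1 high heart, WT SC replicate 3, set much of the spread in its group. The largest difference, HFD above SC in WT hearts, was 0.15 ± 0.09 (95% interval from -0.036 to 0.34) and did not pass (limma adjusted p = 0.600).

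Tgfbr2 encodes the type II receptor that binds the ligand first. It lay at -0.18, -0.050, 0.034 and -0.014 in WT SC hearts and at 0.00083, 0.10, 0.11 and -0.019 in WT HFD hearts. Its values were 0.12, 0.0075, 0.092 and 0.029 in Clock SC hearts and -0.11, -0.00083, -0.053 and -0.046 in Clock HFD hearts. In Clock hearts every SC heart was above every HFD heart, and the other pairs of groups overlapped. With HFD Tgfbr2 differed by -0.11 ± 0.05 in Clock hearts (limma adjusted p = 0.571) and by 0.10 ± 0.05 in WT hearts (limma adjusted p = 0.498). The difference between these, -0.21 ± 0.07, had an unadjusted p of 0.00891 by limma and did not pass (limma adjusted p = 0.868).

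Ltbp1, which ties latent TGF-beta to the matrix, lay at -0.099, -0.00018, 0.067 and -0.18 in WT SC hearts and at -0.23, -0.12, 0.051 and 0.0073 in WT HFD hearts. In Clock SC hearts it lay at 0.14, 0.00067, 0.087 and 0.041, and in Clock HFD hearts at -0.11, 0.00018, -0.15 and -0.12. The Clock SC and Clock HFD hearts did not overlap, by a gap of under 0.001 between single hearts. The diet difference in Clock hearts was -0.16 ± 0.07 and did not pass (limma adjusted p = 0.498). The diet difference in WT hearts was -0.02 ± 0.07.

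Thbs1 encodes thrombospondin 1, a matrix glycoprotein that platelets release and that fibroblasts and endothelium make within minutes to hours of injury or serum. Its hearts spread most among the 9 genes. It lay at 0.099, -0.087, 0.41 and 0.042 in WT SC hearts and at -1.06, -0.69, -0.83 and -1.88 in WT HFD hearts. The Clock hearts had -0.55, -0.042, 0.43 and 0.49 on SC and 0.54, 0.17, 0.098 and -0.63 on HFD. All 4 WT HFD hearts were below the other 12, with WT HFD replicate 4 lowest, although WT HFD replicate 2 and Clock HFD replicate 4 were close to each other.

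On HFD Clock hearts had more Thbs1 than WT hearts, by 1.16 ± 0.27 (2.23-fold, limma adjusted p = 0.0386). With HFD in WT hearts it differed by log2 -1.23 ± 0.27 (2.34-fold), which did not pass (limma adjusted p = 0.0696), and both comparisons use the same WT HFD hearts. On SC the genotypes differed by -0.03 ± 0.27 and in Clock hearts the diets by -0.04 ± 0.27, with 95% intervals that reached from -0.61 to 0.55 and from -0.62 to 0.54. The difference between the diet effects was 1.19 ± 0.39, with an unadjusted p of 0.00730 by limma, and did not pass (limma adjusted p = 0.846).

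The Thbs1 call lay close to the threshold (limma adjusted p = 0.0386) and did not hold in every fit. It was lost in 7 of 16 fits that leave out 1 heart: without Clock HFD replicate 1 (limma adjusted p = 0.116), Clock HFD replicate 2 (0.110), Clock HFD replicate 3 (0.0998), Clock SC replicate 2 (0.0515), WT HFD replicate 1 (0.0790), WT HFD replicate 3 (0.0574) and WT HFD replicate 4 (0.1001). The difference stayed between 0.90 and 1.38 in all 16. The WT diet difference passed without Clock HFD replicate 4 (limma adjusted p = 0.0479). After the arrays were quantile-normalised again the HFD genotype difference was 0.92 (limma adjusted p = 0.0619).

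Immediate early genes, which respond within minutes to stress and to handling of tissue, were mostly lower with HFD in WT hearts, where Thbs1 was also low. Of the 27 listed 25 were measured, and their mean ran from -0.62 to 0.04 in WT HFD hearts, from -0.086 to 0.19 in WT SC, from -0.11 to 0.30 in Clock SC and from -0.41 to 0.37 in Clock HFD hearts. With HFD in WT hearts 1 of the 25 fell, Egr2 at -0.49 ± 0.09 (limma adjusted p = 0.0341, lost in 7 of 16 fits without 1 heart, and 0.114 without WT SC replicate 4), 22 of 25 differences were below 0 and their median was -0.31. In Clock hearts 0 of the 25 passed with HFD, 5 differences were above 0 and their median was -0.13. Thbs1 differed there by -0.04 ± 0.27. On HFD between genotypes Egr2 was higher (0.47 ± 0.09) and Ier3 lower (-0.64 ± 0.11) in Clock hearts, Egr2 in 15 of 16 and Ier3 in 16 of 16 fits without 1 heart, with a median of 0.26 over the 25. With that mean as a covariate the Thbs1 difference on HFD was 0.97 (limma adjusted p = 0.131). Single hearts went both ways. Clock HFD replicate 1 had the highest Thbs1 of its group (0.54) with the lowest early gene mean (-0.41). WT HFD replicate 4 had both the lowest Thbs1 (-1.88) and the lowest early gene mean (-0.62) of all 16 hearts. In Clock SC hearts replicate 1 was lowest in both (-0.55 and -0.11) and replicate 4 highest in both (0.49 and 0.30). A link between Thbs1 and the early genes was not tested. The Thbs1 call on HFD also ended with the endothelial marker mean as a covariate (1.47, limma adjusted p = 0.731), a mean that lay lowest in the 4 WT HFD hearts, and with the fibroblast marker mean (1.21, limma adjusted p = 0.0772). The platelet marker mean as a covariate gave 1.18 (limma adjusted p = 0.0477), and on HFD the median genotype difference of the 6 platelet markers was 0.029.

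**Figure D3:**
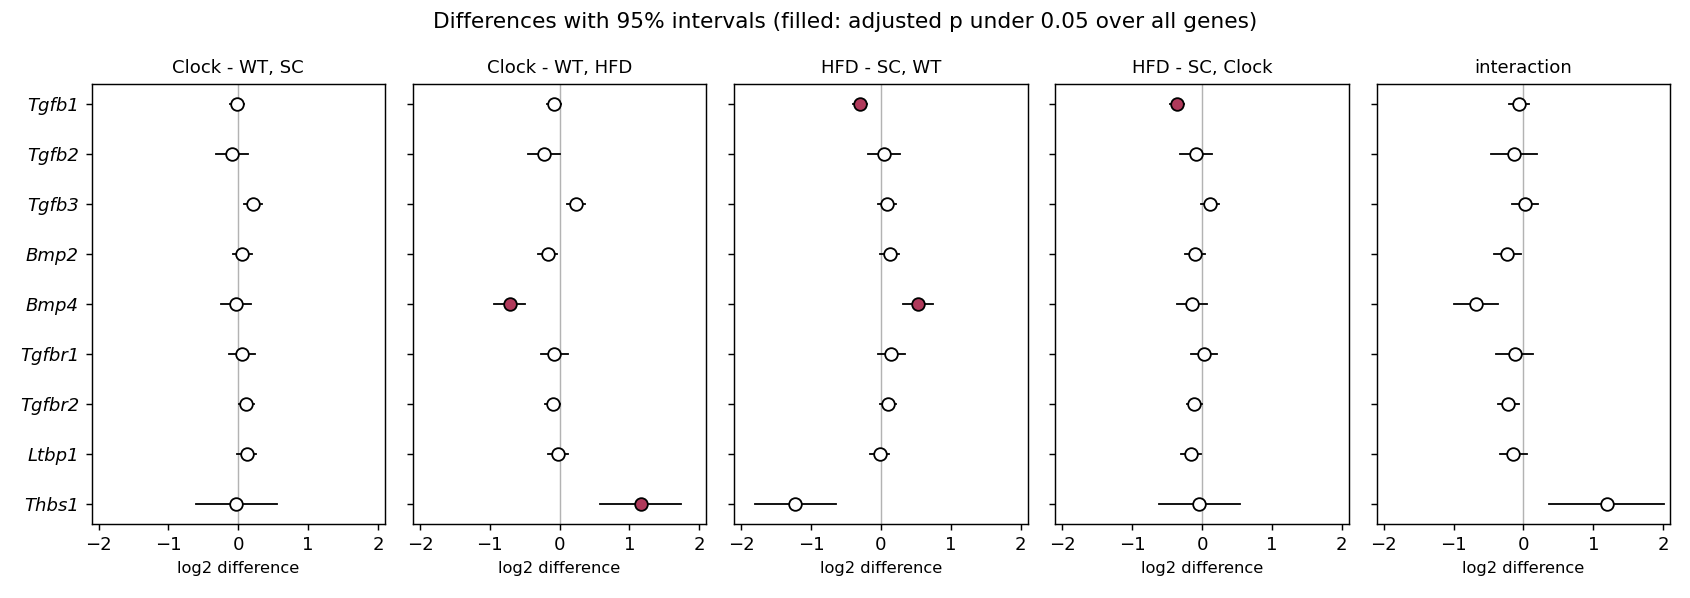
Log2 difference of each of the 9 genes (horizontal axis, with 95% interval) in the 4 pairwise comparisons and in the interaction of genotype and diet. Filled points have a limma adjusted p under 0.05 over all genes: Bmp4 and Thbs1 for genotype on HFD, Tgfb1 and Bmp4 for diet in WT and Tgfb1 for diet in Clock hearts, and the Thbs1 intervals are the widest.

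No gene was called for the interaction of genotype and diet by limma (0 of 22180, 0.0%), and the same count of 0 came from eBayes with trend and robust, array weights, quantile normalization, the replicate block, the early gene covariate, probe sets separately and each of the 16 fits without 1 heart. At an unadjusted p under 0.05 there were 1122 genes (5.06%), and 4 of the 9: Bmp4, Thbs1, Tgfbr2 and Bmp2. For Bmp2 the interaction was -0.23 ± 0.09 (limma adjusted p = 0.951).

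The other genes of the pathway, 126 listed by role with 117 measured, were counted in the same fits. In Clock hearts 3 rose and 0 fell on SC (2.56% of the 117, against 0.491% of all genes), 7 rose and 0 fell on HFD (5.98%, against 1.9%), and 12 rose and 1 fell in the average over diets (11.1%, against 3.88%). With HFD 0 rose and 1 fell in WT hearts (0.855%, against 0.352% of all genes), 0 passed in Clock hearts, and 0 passed for the interaction. The median difference of the 117 lay between -0.012 and 0.035 in the 6 comparisons.

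Among 22 measured genes of latency and activation, 2 rose in Clock hearts on SC and 4 on HFD, and the others did not pass. Described here are 3 of the 4, all matrix metalloproteinases. Mmp9, a gelatinase made mainly by neutrophils and macrophages, rose by 0.60 ± 0.10 on SC (limma adjusted p = 0.0146) and by 0.61 ± 0.10 on HFD (limma adjusted p = 0.00465). Mmp2, the gelatinase of fibroblasts, rose by 0.54 ± 0.10 on SC and by 0.47 ± 0.10 on HFD. Mmp14, the membrane protease that activates pro-MMP2, rose by 0.54 ± 0.08 on HFD (limma adjusted p = 0.00117), and with HFD in WT hearts it fell by 0.45 ± 0.08 (limma adjusted p = 0.0167). Mmp9 was the 1 passing gene of 8 neutrophil markers, whose median differences were 0.059 on SC and 0.012 on HFD. In the average over diets 5 of the 22 rose, with Mmp9, Mmp2 and Mmp14 the largest. When each heart was left out in turn, Mmp9 passed on both diets in 16 of 16 fits, Mmp2 passed in 14 on SC and in 12 on HFD, and Mmp14 passed in 16 on HFD. The fall of Mmp14 with HFD in WT hearts was lost without WT SC replicate 1 or WT SC replicate 4 (limma adjusted p of at most 0.0668).

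Among 20 measured TGF-beta responsive genes, 1 rose in Clock hearts on SC, 2 on HFD and 4 in the average over diets. Fn1, the matrix protein fibronectin, rose by 0.43 ± 0.08 on SC (limma adjusted p = 0.0300) and by 0.48 ± 0.08 on HFD (limma adjusted p = 0.00573), and on HFD Cilp, a matrix protein of cardiac fibroblasts, rose by 0.46 ± 0.11. In the average Fn1 (0.45 ± 0.06), Col1a1 (0.30 ± 0.07) and Postn (0.28 ± 0.07) rose most. The list did not move as 1: in the average 15 of the 20 differences were above 0. Acta2, also a smooth muscle marker, was lower in Clock hearts (-0.49 ± 0.15) but did not pass (limma adjusted p = 0.0741). On SC the rise of Fn1 was lost in 6 of 16 fits that leave out 1 heart, 1 of them without WT SC replicate 4 (limma adjusted p = 0.0668), and that of Cilp on HFD in 8 of 16. Fn1 passed on HFD in 16 of 16, and Postn in the average in 11 of 16. With HFD 0 of the 20 passed in either genotype, where Tgfb1 fell. Fibroblast markers moved with these genes: 0 of 13 passed on either diet and 4 rose in the average, and their mean ran from -0.21 to -0.079 in WT SC, from -0.13 to 0.14 in WT HFD, from -0.027 to 0.063 in Clock SC and from -0.074 to 0.22 in Clock HFD hearts. Their part in these results was not tested. Col1a1, Col1a2, Col3a1 and Postn are on both lists.

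Of 11 measured BMP responsive genes, 0 passed in any of the 4 pairwise comparisons, and in the average 1 was lower in Clock hearts, the transcription factor gene Hey2 (-0.31 ± 0.07, limma adjusted p = 0.0256). That call was lost in 5 of 16 fits that leave out 1 heart, 1 of them without WT SC replicate 4 (limma adjusted p = 0.0527). For genotype on HFD, where Bmp4 was lower, Hey2 had the smallest p of the list (-0.40 ± 0.10, limma adjusted p = 0.0622). For diet in WT hearts, where Bmp4 rose, it was Hey1 (-0.37 ± 0.10, limma adjusted p = 0.146).

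The receptor and ligand lists held few calls. Of 14 other receptors and co-receptors, Hjv, the BMP co-receptor hemojuvelin, was higher in Clock hearts on HFD (0.30 ± 0.06, limma adjusted p = 0.0103), and in the average Hjv (0.27 ± 0.04) and the endothelial co-receptor gene Eng (0.26 ± 0.06) rose. Eng is also 1 of the 12 endothelial markers, and its call was lost in 10 of 16 fits that leave out 1 heart, 1 of them without WT SC replicate 4 (limma adjusted p = 0.0503). Of 17 other ligands 0 passed, and the smallest p for genotype on HFD was that of Gdf6 (0.20 ± 0.06, limma adjusted p = 0.134). Of 12 antagonists 1 passed, Twsg1 in the average (0.17 ± 0.04, limma adjusted p = 0.0385), lost in 9 of 16 fits that leave out 1 heart (0.0725 without WT SC replicate 4). Of 22 SMADs and their regulators 0 passed, and in the average the ubiquitin ligase gene Smurf1 was nearest (0.22 ± 0.06, limma adjusted p = 0.0651). Of 6 other thrombospondins and thrombospondin receptors 0 passed. For diet in WT hearts, where Thbs1 was low, the smallest p among them was that of Cd36, the fatty acid and thrombospondin receptor (0.15 ± 0.04, limma adjusted p = 0.154).

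**Figure D4:**
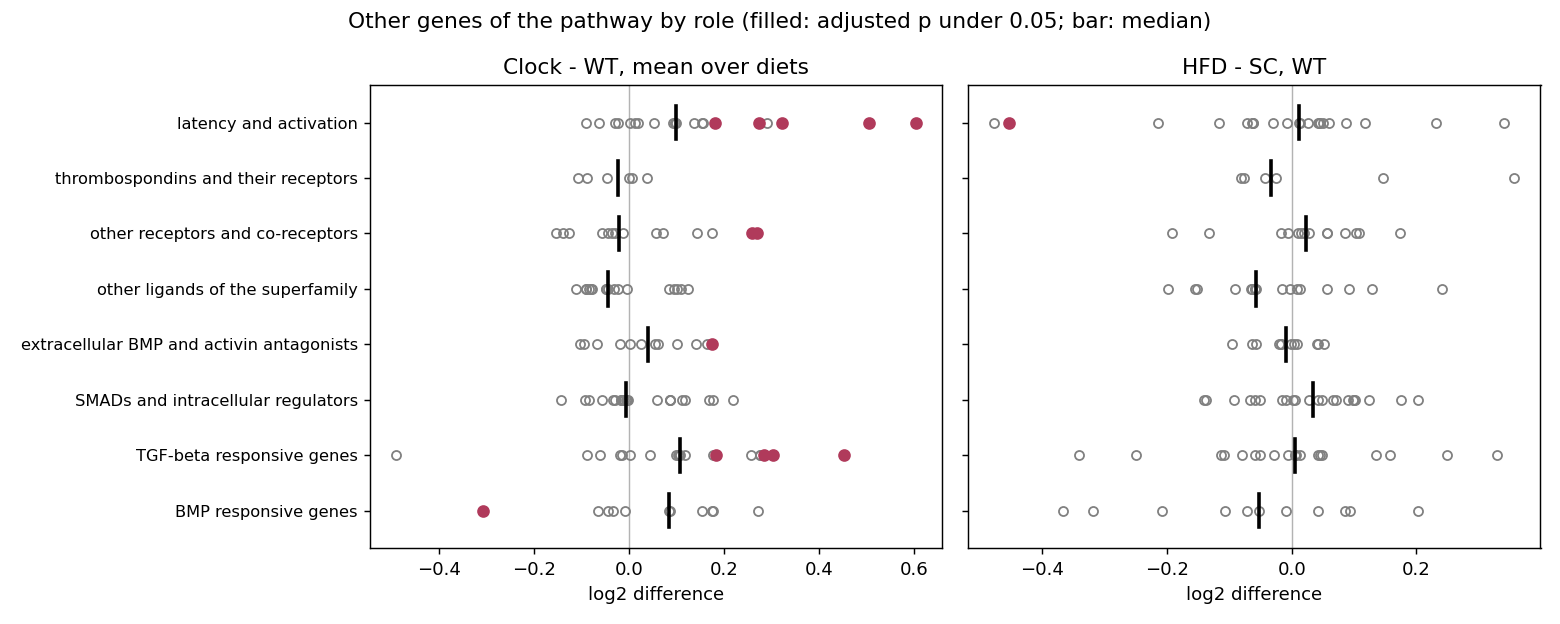
Log2 differences (horizontal axis) of the other pathway genes, 1 point per gene, by role (vertical axis), for genotype averaged over diets on the left and for diet in WT hearts on the right. Filled points have a limma adjusted p under 0.05 and bars are list medians. On the left 12 points are filled above 0 and 1 below, and on the right 1 is filled, Mmp14 at -0.45.

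Among 19374 genes that are neither members nor predicted, those whose pattern over the 16 hearts was most like each of the 9 were picked by Pearson's r. For Tgfb1 they were Cd81, a tetraspanin gene (r = 0.94), and Rras, a small GTPase gene (r = 0.91), and with the group means removed r was 0.57 and 0.63. With HFD Cd81 fell by 0.28 in Clock hearts (limma adjusted p = 0.0376) and Rras by 0.41 in WT hearts (limma adjusted p = 0.0254). These calls were lost in 11 and in 5 of 16 fits that leave out 1 heart, that of Rras also without WT SC replicate 4 (limma adjusted p = 0.0742). For Tgfb3 they were Gpc4, a glypican gene (r = 0.91, 0.75 within groups), and Rnf10 (r = 0.91, 0.73 within groups), and both were higher in Clock hearts on HFD, by 0.46 and 0.33.

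For Thbs1 they were Errfi1, a feedback inhibitor of the EGF receptor (r = 0.92), and Wsb1 (r = 0.91), and within groups r was 0.87 and 0.82. Neither passed for genotype on HFD, where Errfi1 differed by 0.78 (limma adjusted p = 0.219) and Wsb1 by 0.48 (limma adjusted p = 0.142). For Bmp4 they were Ier3, an early response gene (r = 0.90, 0.75 within groups), and Wipf3 (r = 0.87, 0.17 within groups). Ier3 was lower in Clock hearts on HFD by log2 -0.64 (limma adjusted p = 0.00539) and Wipf3 by log2 -0.43 (limma adjusted p = 0.000142). Ier3 was also among those most like Bmp2 (r = 0.78, 0.81 within groups), beside Kcnn3 (r = 0.78, 0.92 within groups).

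The other 4 genes had r of at most 0.83: Spata1 (0.83) and Bmp2k (0.81) for Tgfb2, Hoxb8 (0.83) and Qdpr (0.82) for Tgfbr1, Pramel11 (0.79) and Rara (0.77) for Tgfbr2, and Itgb3 (0.78) and Prkar2b (0.75) for Ltbp1. Between members, r over the 16 hearts was 0.70 for Bmp2 with Bmp4 (0.59 within groups) and -0.75 for Thbs1 with Bmp4 (-0.24 within groups). These are descriptions: the hearts share their groups and arrays, and the likest of many genes has a high r by its choice.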

How the data were processed

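Total RNA (500 ng per heart) of 16 hearts was labelled and hybridised to Affymetrix arrays, per the labels' protocols. The deposited table holds log2 values (the base is assumed) for 34351 probe sets, scaled by the authors and centred so that every probe set's median is 0. Neither the software nor the background correction and normalization were given in the sources used here. Probe sets with exactly 1 symbol in the platform annotation (23521; 1814 have several and 9016 none listed) were averaged per gene to 22180 genes, with symbols checked by gene ID against RefSeq of GRCm38.p6 (0 changed, 193 unmatched). No filter on dim genes could be made, since centred values hold no levels.

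limma 3.58.1 in R 4.3.3 (lmFit, eBayes) fitted 1 mean per group to all 16 arrays, with 12 residual and 4.16 prior degrees of freedom, two-sided tests and Benjamini-Hochberg adjustment over all genes. The threshold was an adjusted p under 0.05 at any fold. The script was tested on simulated data. The 6 comparisons were genotype on each diet, diet in each genotype, their interaction and the genotype average. Each of the 9 genes is named. Other lists name up to 3 passing genes per comparison with the largest difference, or the 1 with the smallest p, and the text gives those that bear on the 9. The 2 genes most alike to each member by Pearson's r are named, and Clock, Dbp, Nr1d1, Per3 and Arntl check the genotype. A further endothelial marker count and its named genes follow the same rule. Members and lists were chosen with earlier results of these data known. The number of arrays limits the precision.

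Other settings tried were eBayes with trend and robust, array weights, quantile normalization, a replicate block, an early gene covariate, only the 8 arrays compared, probe sets separately, each heart left out, and, chosen after seeing the data, platelet, fibroblast and endothelial marker covariates. Figures used Python 3.11.15, numpy 2.4.6, pandas 2.3.3 and matplotlib 3.10.9.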

Additional observations from a re-analysis of the deposited data

Results flagged for a closer look

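Bmp2 in Clock HFD replicate 1 lay at -0.1503, while the other 3 Clock HFD hearts lay between -0.039 and -0.016. The gap to its neighbour was 0.834 of the range of the group, just past Dixon's critical value for 4 samples. The same heart had the lowest Bmp4 of all 16 (-0.61). In all, 36 groups (9 genes in 4 groups) were looked at this way and this was the 1 found. Chance alone puts about 1 in 20 groups past this value, and over all 22180 genes 5.23% to 5.65% of groups were past it.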

How the results depend on the processing

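Over the settings and the fits that leave out 1 heart, the genotype difference of Bmp4 on HFD and the averages of Tgfb3 and Bmp4 over diets passed in all but the fit with the endothelial marker covariate. The fall of Tgfb1 in Clock hearts passed in all but the fit of only the 8 arrays compared. Calls of the 9 genes fell from 2 to 1 for genotype on HFD with eBayes with trend and robust, quantile normalization, the replicate block, the early gene covariate, only the 8 arrays and probe sets separately. They fell from 2 to 1 for diet in WT with trend and robust, array weights, the replicate block, only the 8 arrays and probe sets separately, and to 0 with the early gene covariate. For diet in Clock hearts they fell from 1 to 0 with only the 8 arrays. Leaving out 1 heart gave 1 to 2 calls among the 9 for genotype on HFD and 0 to 3 for diet in WT. These counts leave out the marker covariate fits. With the endothelial covariate neither Bmp4 (limma adjusted p = 0.221) nor Thbs1 (limma adjusted p = 0.731) passed for genotype on HFD. For diet in WT neither Tgfb1 nor Bmp4 passed with the fibroblast covariate (limma adjusted p = 0.131 and 0.265). The same held with the endothelial covariate (limma adjusted p = 0.140 for both).

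Genes called on SC, 109, became 59 with trend and robust and 38 with only the 8 arrays, and were 49 to 144 without 1 heart. On HFD the 422 became 241 to 490 without 1 heart. For diet in WT the 78 became 40 with trend and robust, 41 with the replicate block, 12 with the early gene covariate and 15 with only the 8 arrays, and were 28 to 90 without 1 heart. For diet in Clock hearts the 20 became 8 with trend and robust, 53 with array weights, 36 with quantile normalization, 12 with the replicate block and 7 with only the 8 arrays, and were 6 to 27 without 1 heart. The cause of these changes was not tested, except that fits of 8 arrays or without a heart use fewer samples. Of 306 list counts, 283 stayed within 1.5 times and 23 did not, by at most 2 genes.

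Over all genes together replicate numbers showed no pairing of the hearts: r of deviations from the group means was -0.149 to 0.163 over 24 pairs with the same number (3 over 0.1) and -0.203 to 0.209 over 72 pairs with different numbers (5 over 0.1). An r over all genes cannot exclude a tie in single genes. With the replicate block Thbs1 on HFD (limma adjusted p = 0.0501) and Bmp4 for diet in WT (0.0556) no longer passed, and the average genotype difference of Tgfb2, -0.16, did (0.0320, against 0.332 without the block). With array weights Tgfb3 on HFD passed (0.24, limma adjusted p = 0.0409).

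Signs also turned, for differences that did not pass with all hearts and no covariate. With the early gene covariate this was diet in WT for Ltbp1 (0.0091), diet in Clock for Tgfbr1 (-0.0084) and Thbs1 (0.059), and the average for Tgfbr1 (0.024) and Tgfbr2 (-0.00081). With array weights it was diet in Clock for Tgfbr1 (-0.00031) and Thbs1 (0.019). With the platelet covariate it was diet in WT for Ltbp1 (0.020) and the average for Tgfbr2 (-0.0021). With the fibroblast covariate it was SC for Tgfb1 (0.017) and Thbs1 (0.066), HFD for Ltbp1 (0.017), diet in WT for Tgfb2 (-0.0047) and Ltbp1 (0.045), and the average for Tgfbr1 (0.045). With the endothelial covariate it was SC for Tgfb1 (0.019), Tgfb2 (0.019), Tgfbr1 (-0.073) and Thbs1 (0.13), diet in WT for Tgfb2 (-0.080), and the average for Tgfb1 (0.0083), Tgfb2 (0.0039, from -0.16), Tgfbr2 (-0.032) and Bmp2 (0.049).

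Without 1 heart the ranges that crossed 0 were, on SC, -0.045 to 0.0047 for Tgfb1, -0.17 to 0.18 for Thbs1 and -0.064 to 0.027 for Bmp4, and on HFD -0.074 to 0.019 for Ltbp1. For diet in WT they were -0.025 to 0.14 for Tgfb2 and -0.062 to 0.033 for Ltbp1, and for diet in Clock hearts -0.030 to 0.051 for Tgfbr1 and -0.25 to 0.19 for Thbs1. For the interaction it was -0.010 to 0.079 for Tgfb3, and for the average -0.035 to 0.041 for Tgfbr1 and -0.014 to 0.022 for Tgfbr2.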

Other observations

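In each of the 4 groups the heart numbered replicate 2 had the highest Tgfb2, although these are different mice. It lay at 0.36 in WT SC, 0.33 in WT HFD, 0.21 in Clock SC and 0.060 in Clock HFD hearts, and replicate 1 came next in each. Replicates 3 and 4 were the lower pair in each group, from -0.20 to 0.064. The deviations of all genes together did not follow the replicate numbers, and the labels do not say what a number stands for.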
